A study of Homo sapiens with 18 samples.

Results

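The smooth muscle contractile genes considered here are 10 genes taken by symbol from the deposited gene table of 39368 genes: CNN1, CNN2, CNN3, ACTA2, TAGLN, MYL9, TPM1, TPM2, ACTG2 and CALD1. All 10 were present in the tables of both cell lines. They were chosen for the higher CNN1 and ACTA2 of BE2C cells given a hairpin against AHR, so the BE2C hairpin values are a description without a test, and contrasts within Kelly were tested. RNA was sequenced from human neuroblastoma lines with amplified MYCN, BE2C and Kelly. Each line carried the short hairpin RNA shAhR-1, the short hairpin RNA shAhR-2 or the control construct pLKO-GFP, with 3 libraries in each of the 6 groups and 18 in all. The target AHR encodes the aryl hydrocarbon receptor, which turns on transcription when a ligand binds it, and the series title concerns its part in dedifferentiation. The labels name no clone, time point or separate culture. The p-values therefore describe the spread among libraries of a group, and that spread could be technical. Levels are given in CPM, which are counts scaled to library size. Differences are log2 fold changes ± SE from a count model.

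Smooth muscle cells contract when myosin, switched on through its regulatory light chain, pulls on filaments of actin that carry tropomyosin, calponin, caldesmon and transgelin. Many of these genes are activated by serum response factor (SRF), which binds the CArG box of a promoter together with a coactivator such as myocardin or a myocardin-related transcription factor (MRTF). Several members, among them CNN2, CNN3, TPM1 and CALD1, are also made by cells that are not muscle, where they act on the actin cytoskeleton.

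RefSeq promoter windows (GRCh38.p14, the 250 bases before an annotated start) were available for 8 members, in 14 windows. The 3 windows printed here are shown because they hold CArG boxes, or boxes with 1 base off, and belong to members whose fitted level in BE2C was above the control with both hairpins. They are written 5′ to 3′ on the gene's own strand, and capitals mark the CArG boxes, including those with 1 base off.
ACTG2, chr2:73892758-73893007, plus strand: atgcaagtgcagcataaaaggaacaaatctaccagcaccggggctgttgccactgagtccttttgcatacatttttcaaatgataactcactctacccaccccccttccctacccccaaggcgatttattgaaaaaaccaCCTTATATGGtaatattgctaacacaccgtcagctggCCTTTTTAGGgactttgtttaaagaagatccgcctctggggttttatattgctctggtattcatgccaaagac
CNN2, chr19:1026358-1026607, plus strand: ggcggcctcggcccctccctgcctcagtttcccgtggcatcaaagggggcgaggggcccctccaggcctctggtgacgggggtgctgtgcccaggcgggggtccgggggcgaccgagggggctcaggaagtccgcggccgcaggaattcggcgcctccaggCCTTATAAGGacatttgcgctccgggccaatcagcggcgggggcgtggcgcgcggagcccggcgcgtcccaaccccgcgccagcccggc
ACTA2, chr10:88952774-88953023, minus strand: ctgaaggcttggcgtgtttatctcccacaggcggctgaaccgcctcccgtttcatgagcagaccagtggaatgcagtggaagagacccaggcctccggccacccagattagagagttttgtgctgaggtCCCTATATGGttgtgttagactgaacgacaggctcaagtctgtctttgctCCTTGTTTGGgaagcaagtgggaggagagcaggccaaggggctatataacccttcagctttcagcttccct
The 2 boxes of ACTG2 began 110 and 73 bases before the start, and the 1 box of CNN2 began 89 bases before it. In ACTA2 the pair with 1 base off began at 121 and 71 bases, and the other ACTA2 window held none. A full CArG box stood in 1.16% of all 35116 windows of the same length, and a box with at most 1 base off in 7.04%. Of the other members with a window, CALD1 held a box with 1 base off in 1 of its 4 windows, at 26 bases, and none was found in the windows of CNN1, CNN3, TPM1 and TPM2. The core of the AhR binding element, GCGTG on either strand, was found in 5 of the 14 windows (CNN2, CNN3, ACTA2 and TPM2), beside 32.2% of all windows. A match describes letters and is not a binding site.

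AHR itself had few counts in every library. BE2C had 8, 0 and 0 counts with shAhR-1 and 0, 0 and 0 with shAhR-2, against 4, 4 and 6 with pLKO-GFP. Kelly had 18, 11 and 22 counts in the libraries labelled shAhR-1 and 0, 4 and 0 with shAhR-2, against 4, 26 and 29 with pLKO-GFP. In CPM, BE2C with shAhR-2 was the one hairpin group in which all libraries lay below their controls in AHR. The shAhR-1 libraries of both lines and the shAhR-2 libraries of Kelly overlapped theirs, and a direction given for shAhR-1 in either line is that of the libraries so labelled. Total counts were 32799682 to 45469353 per library. Mitochondrial genes took 24.3% to 24.9% of BE2C counts with shAhR-1, 20.5% to 25.1% with shAhR-2 and 18.8% to 19.4% with pLKO-GFP. For Kelly the ranges were 17.4% to 17.7% with shAhR-1, 15.2% to 15.8% with shAhR-2 and 14.5% to 15.6% with pLKO-GFP. The highest share belonged to BE2C shAhR-2 replicate 1, whose partners both had 20.5%. Its raw counts, mitochondrial genes included, also stood apart from theirs by chi-square per gene (24.8 and 27.2). Its median absolute log2 difference from its group was 0.0639, close to the 0.0470 to 0.0627 of the other libraries. The part of its mitochondrial share in the results was not tested, and values without that library are given below. All 11 neuroblastoma markers, led by MYCN, were detected in each group.

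**Figure D1:**
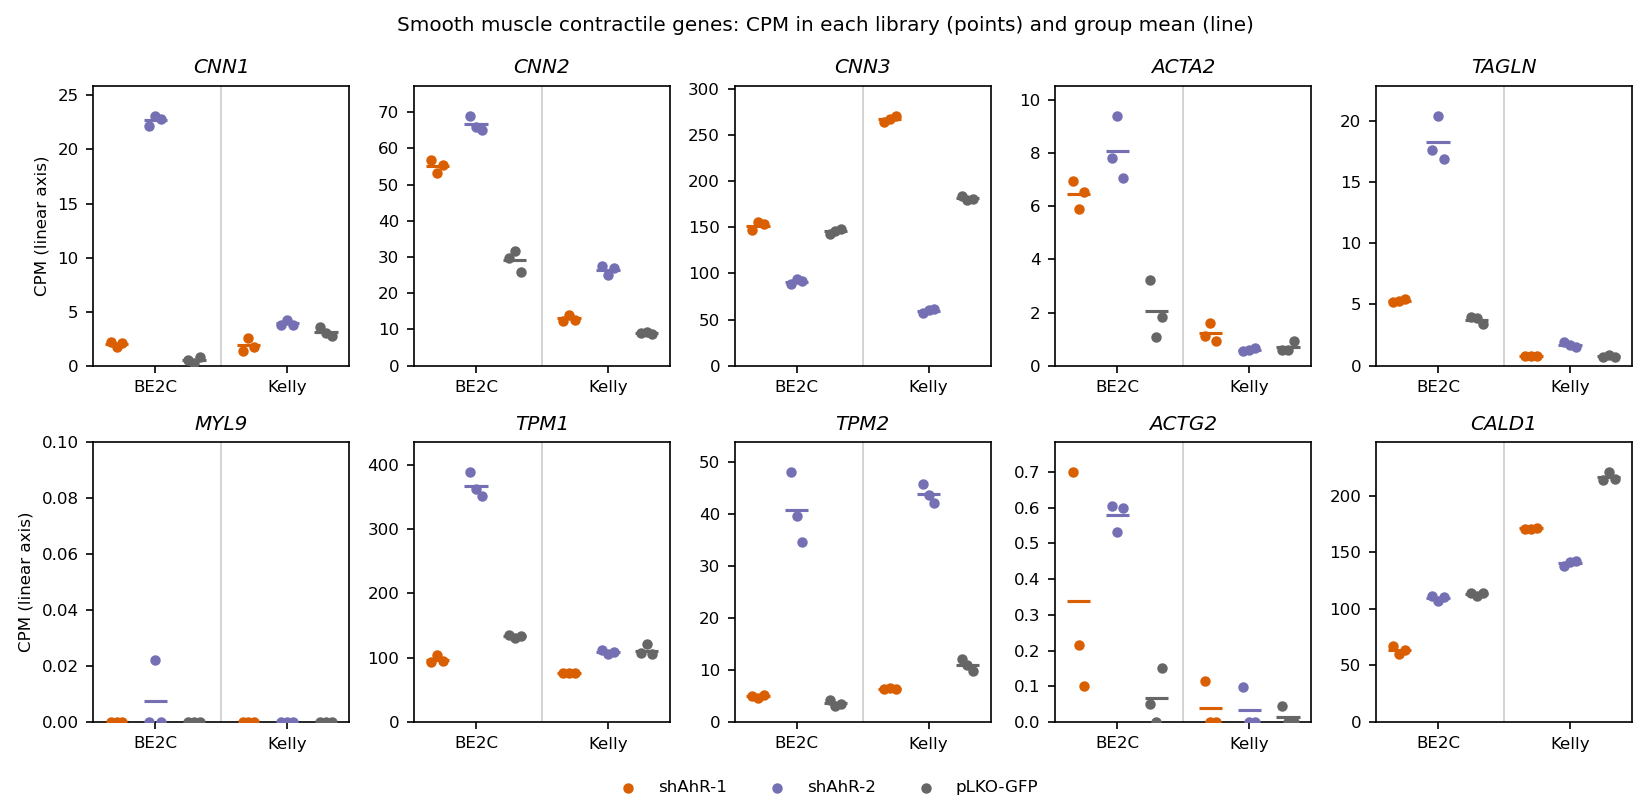
CPM of the 10 members in each of the 18 libraries (points) with group means (lines), on a linear axis from 0 that differs between panels; within each line shAhR-1 stands left, shAhR-2 in the middle and pLKO-GFP right. CNN1, TAGLN and TPM1 stand apart in the 3 BE2C shAhR-2 libraries, TPM2 is high with shAhR-2 in both lines, and MYL9 is at or near 0 everywhere.

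CNN1 encodes the calponin of differentiated smooth muscle (chromosome 19, 11538717–11550323, plus strand, GRCh38, GENCODE release 29). Its level in BE2C was 2.19, 1.70 and 2.13 CPM with shAhR-1 and 22.2, 23.1 and 22.8 CPM with shAhR-2, against 0.49999, 0.293 and 0.761 CPM with pLKO-GFP. All 6 hairpin libraries lay above the 3 controls, and the shAhR-2 libraries stood far above the shAhR-1 libraries. The log2 fold change was 1.96 ± 0.22 with shAhR-1, a 3.89-fold difference, and 5.46 ± 0.17 with shAhR-2, a 44.1-fold difference. Kelly had 1.38, 2.52 and 1.75 CPM in the libraries labelled shAhR-1 and 3.79, 4.18 and 3.76 CPM with shAhR-2, against 3.56, 3.04 and 2.72 CPM with pLKO-GFP. The libraries labelled shAhR-1 were all below their control and the shAhR-2 libraries all just above it. CNN1 fell in the Kelly libraries labelled shAhR-1 (−0.72 ± 0.19, Benjamini-Hochberg adjusted p = 0.00101 in edgeR's quasi-likelihood test). With shAhR-2 in Kelly the difference of 0.32 ± 0.17 did not pass the test (edgeR adjusted p = 0.0869). Without Kelly pLKO-GFP replicate 1 it did (0.43, edgeR adjusted p = 0.0439).

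Over the 6 groups CNN1 was highest in BE2C with shAhR-2 (22.7 ± 0.476 CPM, SD, n = 3 in each group). Kelly with shAhR-2 (3.91 ± 0.235) and Kelly with pLKO-GFP (3.10 ± 0.423) came next, without overlap of their libraries. BE2C with shAhR-1 (2.01 ± 0.268) and the Kelly libraries labelled shAhR-1 (1.88 ± 0.584) overlapped, and BE2C with pLKO-GFP (0.518 ± 0.234) was lowest. All shAhR-1 libraries of BE2C thus lay below the CNN1 level of the Kelly control. The difference between the lines in the hairpin effect, BE2C minus Kelly, was 2.68 ± 0.30 for shAhR-1 and 5.12 ± 0.26 for shAhR-2 on the log2 scale.

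CNN2, the calponin found in many cells that are not muscle (chromosome 19, 1026581–1039068, plus strand), was higher with each hairpin in each line. BE2C had 56.8, 53.3 and 55.5 CPM with shAhR-1 and 69.0, 65.8 and 65.1 CPM with shAhR-2, against 29.6, 31.7 and 26.0 CPM with pLKO-GFP. Kelly had 12.4, 14.1 and 12.7 CPM in the libraries labelled shAhR-1 and 27.6, 25.0 and 26.8 CPM with shAhR-2, against 9.15, 9.33 and 8.80 CPM with pLKO-GFP. In no case did hairpin and control libraries overlap, and both lines were higher with shAhR-2 than with shAhR-1. The BE2C differences were 0.92 ± 0.057 with shAhR-1 and 1.20 ± 0.056 with shAhR-2. In Kelly CNN2 rose by 0.53 ± 0.082 in the libraries labelled shAhR-1 (edgeR adjusted p = 1.66e-07) and by 1.53 ± 0.076 with shAhR-2 (edgeR adjusted p = 3.11e-24). Among the members, it alone passed the test upward in both Kelly contrasts.

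CNN3, the acidic calponin of brain and other tissues (chromosome 1, 94896949–94927278, minus strand), took another course. Its BE2C levels were 147, 156 and 153 CPM with shAhR-1 and 88.7, 93.9 and 91.3 CPM with shAhR-2, against 143, 146 and 148 CPM with pLKO-GFP. Its Kelly levels were 264, 268 and 271 CPM in the libraries labelled shAhR-1 and 57.2, 60.2 and 61.9 CPM with shAhR-2, against 185, 180.3 and 181 CPM with pLKO-GFP. With shAhR-2 all libraries lay below their controls in both lines, and with shAhR-1 they lay above them in Kelly and overlapped them in BE2C. The BE2C differences were 0.059 ± 0.035 with shAhR-1 and −0.66 ± 0.036 with shAhR-2. In Kelly CNN3 rose by 0.56 ± 0.031 in the libraries labelled shAhR-1 (edgeR adjusted p = 3.28e-22). It fell by 1.61 ± 0.033 on the log2 scale with shAhR-2 (edgeR adjusted p = 7.56e-41).

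Levels of the 3 calponins can be set side by side in CPM per kilobase of exon. CNN3 made up 77.2% ± 1.13 of the summed calponin level with shAhR-1 in BE2C, 55.2% ± 1.02 with shAhR-2 and 86.3% ± 1.15 with pLKO-GFP (SD, n = 3). CNN1 made up 1.00% ± 0.143 with shAhR-1, 13.5% ± 0.183 with shAhR-2 and 0.302% ± 0.137 with pLKO-GFP. In Kelly the CNN3 share was 95.7% ± 0.419 in the libraries labelled shAhR-1, 70.9% ± 1.32 with shAhR-2 and 94.7% ± 0.233 with pLKO-GFP, and CNN2 took 24.5% ± 1.43 with shAhR-2, against 3.69% ± 0.109 with pLKO-GFP. The calponin mix with shAhR-2 thus held less CNN3 in both lines, with more CNN1 and CNN2 in its place in BE2C and mostly CNN2 in Kelly. The summed level was 58.3 ± 0.727 CPM per exonic kb in BE2C with shAhR-2, against 59.5 ± 0.691 with pLKO-GFP, while in Kelly it was 29.7 ± 0.731 with shAhR-2, against 67.6 ± 0.988 with pLKO-GFP.

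**Figure D2:**
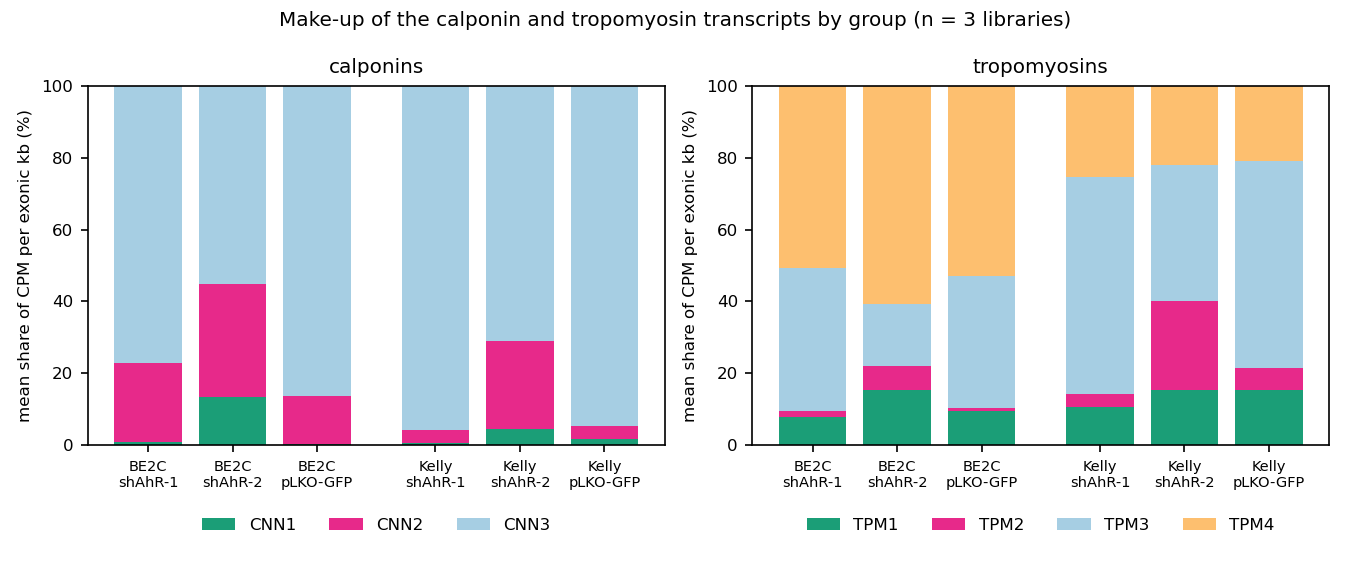
Mean share of each gene in the summed calponin level (left) and the summed tropomyosin level (right), in percent of CPM per exonic kb, for the 6 groups of 3 libraries; within each line shAhR-1 stands left and pLKO-GFP right. The CNN3 share is lowest with shAhR-2 in each line (55.2% in BE2C, 70.9% in Kelly), and the TPM2 share reaches 24.6% in Kelly with shAhR-2.

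ACTA2 encodes the alpha actin of vascular smooth muscle (chromosome 10, 88935074–88991339, minus strand). BE2C had 6.95, 5.91 and 6.56 CPM with shAhR-1 and 7.83, 9.41 and 7.06 CPM with shAhR-2, against 3.22, 1.10 and 1.85 CPM with pLKO-GFP. All 6 hairpin libraries lay above the controls, and the shAhR-1 libraries lay below the shAhR-2 libraries without overlap. The differences from pLKO-GFP were 1.65 ± 0.20 with shAhR-1, a 3.15-fold difference, and 1.99 ± 0.20 with shAhR-2, a 3.97-fold difference. The direct contrast of shAhR-1 against shAhR-2 gave −0.33 ± 0.17. It was not called in the main fit, but was called under some alternatives, such as only the compared groups, no filter and halved counts. The controls spread widely, and leaving out each library in turn moved the shAhR-2 value between 1.68 and 2.46.

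In Kelly ACTA2 had 1.1204, 1.60 and 0.921 CPM in the libraries labelled shAhR-1 and 0.563, 0.581 and 0.670 CPM with shAhR-2, against 0.597, 0.598 and 0.932 CPM with pLKO-GFP. Both hairpin groups overlapped the control. The difference of 0.79 ± 0.33 in the libraries labelled shAhR-1 passed the test (edgeR adjusted p = 0.0385). It did not pass without pLKO-GFP replicate 1 (0.67, edgeR adjusted p = 0.122), without pLKO-GFP replicate 2 (0.68, adjusted p = 0.111) or without shAhR-1 replicate 2 (0.53, adjusted p = 0.248). With shAhR-2 the difference was −0.22 ± 0.35 (edgeR adjusted p = 0.574). The BE2C minus Kelly difference was 0.87 ± 0.37 for shAhR-1 and 2.19 ± 0.39 for shAhR-2. The shAhR-1 value was 1.35 without BE2C pLKO-GFP replicate 1 and 0.57 without BE2C pLKO-GFP replicate 2. Over the 6 groups ACTA2 was highest in BE2C with shAhR-2 (8.10 ± 1.20 CPM), followed by BE2C with shAhR-1 (6.47 ± 0.527) and BE2C with pLKO-GFP (2.06 ± 1.08), without overlap between these 3 groups. The Kelly libraries labelled shAhR-1 (1.21 ± 0.350), those with pLKO-GFP (0.709 ± 0.193) and those with shAhR-2 (0.605 ± 0.0577) came after, each overlapping the group before it.

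Genes on the opposite strand share exonic bases with ACTA2, namely ACTA2-AS1 (17.3% of the exonic bases) and the death receptor gene FAS (12.8%), and the strand setting of the counting is unknown here. FAS averaged 1.06 ± 0.174 CPM with shAhR-1 and 2.23 ± 0.409 CPM with shAhR-2 in BE2C, against 0.556 ± 0.0953 CPM with pLKO-GFP, so it was higher in the same groups as ACTA2. ACTA2-AS1 averaged 0.269 ± 0.0819 CPM with shAhR-1 and 0.439 ± 0.00825 CPM with shAhR-2 there, against 0.232 ± 0.153 CPM with pLKO-GFP. In Kelly ACTA2-AS1 rose in the libraries labelled shAhR-1 (1.45 ± 0.60, edgeR adjusted p = 0.0341) and with shAhR-2 (1.46 ± 0.59, edgeR adjusted p = 0.0239). Its counts were few, at 20, 11 and 17 and at 14, 21 and 21 in these groups, against 5, 0 and 14 with pLKO-GFP. In CPM both hairpin groups overlapped the control. FAS in Kelly differed by 0.047 ± 0.19 (edgeR adjusted p = 0.845) and 0.19 ± 0.18 (edgeR adjusted p = 0.358) in these contrasts. Whether reads of these genes entered the ACTA2 counts was not tested.

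ACTG2, the gamma actin of visceral smooth muscle (chromosome 2, 73892314–73919865, plus strand), was close to the limit of detection. BE2C had 30, 8 and 4 counts with shAhR-1 and 26, 24 and 28 counts with shAhR-2, against 2, 0 and 6 counts with pLKO-GFP. The shAhR-2 libraries lay above the controls and the shAhR-1 libraries overlapped them. The log2 fold changes were 2.32 ± 0.78 with shAhR-1 and 3.08 ± 0.73 with shAhR-2. The shAhR-1 value was 1.18 without shAhR-1 replicate 1 and 1.74 without pLKO-GFP replicate 2, and was then no longer called. Without pLKO-GFP replicate 3 the values were 3.64 with shAhR-1 and 4.397 with shAhR-2. Kelly had 4, 0 and 0 counts in the libraries labelled shAhR-1 and 4, 0 and 0 with shAhR-2, against 2, 0 and 0 with pLKO-GFP, and no fold is given. Smooth muscle actins were a small part of the actin transcripts. ACTA2 made up 0.206% ± 0.0203 of the summed actin level per exonic kb with shAhR-1 in BE2C, 0.266% ± 0.0399 with shAhR-2 and 0.0504% ± 0.0248 with pLKO-GFP, and the cytoplasmic actins ACTB and ACTG1 made up nearly all of the rest.

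TAGLN encodes the actin-binding protein transgelin, or SM22 alpha (chromosome 11, 117199321–117204782, plus strand). Its BE2C levels were 5.18, 5.29 and 5.41 CPM with shAhR-1 and 17.6, 20.4 and 16.9 CPM with shAhR-2, against 3.95, 3.88 and 3.398 CPM with pLKO-GFP. Its Kelly levels were 0.804, 0.788 and 0.800 CPM in the libraries labelled shAhR-1 and 1.93, 1.67 and 1.51 CPM with shAhR-2, against 0.729, 0.885 and 0.725 CPM with pLKO-GFP. The shAhR-2 libraries stood above all others of their line in both lines, and the libraries labelled shAhR-1 overlapped the control in Kelly. The BE2C differences were 0.50 ± 0.12 with shAhR-1 and 2.30 ± 0.11 with shAhR-2. In Kelly TAGLN rose by 1.118 ± 0.28 with shAhR-2 (edgeR adjusted p = 0.00032), and the difference was 0.037 ± 0.30 in the libraries labelled shAhR-1 (edgeR adjusted p = 0.925). PCSK7 lies on the opposite strand over 11.4% of the exonic bases of TAGLN. It differed by 0.13 ± 0.053 with shAhR-1 and 0.035 ± 0.052 with shAhR-2 in BE2C, and rose in Kelly by 0.25 ± 0.073 in the libraries labelled shAhR-1 (edgeR adjusted p = 0.00287) and 0.26 ± 0.072 with shAhR-2 (edgeR adjusted p = 0.000999). Its part in the TAGLN counts was not tested.

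CALD1, the gene of caldesmon, which binds actin and restrains myosin (chromosome 7, 134744252–134970728, plus strand), was not higher than its control in any contrast. BE2C had 67.4, 60.4 and 63.2 CPM with shAhR-1 and 111, 107 and 111 CPM with shAhR-2, against 114, 111 and 114 CPM with pLKO-GFP. Kelly had 171, 171 and 172 CPM in the libraries labelled shAhR-1 and 138, 142 and 142 CPM with shAhR-2, against 214, 221 and 215 CPM with pLKO-GFP. The libraries labelled shAhR-1 lay well below the control in both lines, and those with shAhR-2 did so in Kelly and lay just below it in BE2C. The differences in BE2C were −0.83 ± 0.041 with shAhR-1 and −0.033 ± 0.039 with shAhR-2. In Kelly CALD1 fell by 0.34 ± 0.030 on the log2 scale in the libraries labelled shAhR-1 (edgeR adjusted p = 3.83e-14) and by 0.63 ± 0.030 with shAhR-2 (edgeR adjusted p = 5.28e-25). The counts do not separate the smooth muscle splice form of caldesmon from the form of other cells.

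TPM1 encodes alpha tropomyosin, whose splice forms serve muscle and cytoskeleton alike (chromosome 15, 63042632–63071915, plus strand). BE2C had 92.6, 104 and 94.4 CPM with shAhR-1 and 389, 363 and 351 CPM with shAhR-2, against 136, 131 and 133 CPM with pLKO-GFP. The hairpins lay on opposite sides of the control without overlap. The differences were −0.46 ± 0.040 with shAhR-1 and 1.47 ± 0.038 with shAhR-2. Kelly had 76.6, 75.9 and 76.0 CPM in the libraries labelled shAhR-1 and 112, 106 and 109 CPM with shAhR-2, against 107, 121 and 105 CPM with pLKO-GFP. The libraries labelled shAhR-1 were all lower and the shAhR-2 libraries overlapped the controls. TPM1 fell by 0.54 ± 0.040 on the log2 scale in the Kelly libraries labelled shAhR-1 (edgeR adjusted p = 6.78e-17) and differed by −0.033 ± 0.039 with shAhR-2 (edgeR adjusted p = 0.449). TPM1-AS, antisense over 16.1% of the exonic bases of TPM1, had at most 0.287 CPM in any library.

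TPM2, the beta tropomyosin abundant in muscle (chromosome 9, 35681992–35690121, minus strand), had the largest fold change among the members tested in Kelly. There it had 6.35, 6.52 and 6.40 CPM in the libraries labelled shAhR-1 and 45.8, 43.8 and 42.2 CPM with shAhR-2, against 12.1, 10.9 and 9.81 CPM with pLKO-GFP. The groups did not overlap, and the hairpins lay on opposite sides of the control. TPM2 fell by 0.77 ± 0.085 on the log2 scale in the libraries labelled shAhR-1 (edgeR adjusted p = 4.13e-11) and rose by 2.00 ± 0.070 with shAhR-2, a 3.99-fold difference (edgeR adjusted p = 1.01e-30). BE2C had 5.04, 4.67 and 5.11 CPM with shAhR-1 and 48.1, 39.7 and 34.7 CPM with shAhR-2, against 4.20, 3.15 and 3.47 CPM with pLKO-GFP. All 6 hairpin libraries were above the controls, the shAhR-2 libraries by far. The BE2C differences were 0.45 ± 0.13 with shAhR-1 and 3.51 ± 0.11 with shAhR-2, an 11.4-fold difference. With shAhR-2 the libraries of the lines overlapped, at 40.8 ± 6.78 CPM in BE2C and 44.0 ± 1.81 CPM in Kelly.

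Per exonic kilobase, TPM1 and TPM2 together with the cytoskeletal tropomyosins TPM3 and TPM4 gave a family total of 187 ± 7.05 CPM per kb in BE2C with shAhR-2, against 109.9 ± 4.402 with pLKO-GFP. The Kelly totals were nearly level, at 55.6 ± 1.17 in the libraries labelled shAhR-1, 54.9 ± 0.726 with shAhR-2 and 55.8 ± 2.11 with pLKO-GFP. Of the Kelly total, the TPM2 share was 3.56% ± 0.0584 in the libraries labelled shAhR-1, 24.6% ± 0.691 with shAhR-2 and 6.03% ± 0.437 with pLKO-GFP. The TPM3 share was 60.4% ± 0.480 in the libraries labelled shAhR-1, 38.0% ± 0.266 with shAhR-2 and 57.7% ± 0.40004 with pLKO-GFP. Kelly with shAhR-2 thus had more TPM2 and less TPM3, in a family total that hardly differed on this scale. The exonic length counts every annotated exon of a gene once. It was 12.9 kb for TPM1, 3.25 kb for TPM2, 8.39 kb for TPM3 and 8.63 kb for TPM4. TPM2 thus weighs most per count, and the shares and totals depend on these lengths. In the fit TPM3 fell by 0.63 ± 0.030 on the log2 scale in Kelly with shAhR-2 (edgeR adjusted p = 6.19e-25), and TPM4 differed by 0.051 ± 0.034 there (edgeR adjusted p = 0.18). Both genes were chosen after their values were seen, so these p-values are descriptions. In BE2C with shAhR-2 the TPM1 share was 15.2% ± 0.237 and the TPM4 share 60.7% ± 0.628, against 9.43% ± 0.213 for TPM1 and 53.0% ± 0.271 for TPM4 with pLKO-GFP.

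MYL9, which encodes the regulatory light chain of smooth muscle myosin (chromosome 20, 36541484–36551447, plus strand), had no count in 17 libraries and 1 count in BE2C shAhR-2 replicate 2. A count of 0 allows up to 3 counts, or 0.0643 to 0.0862 CPM depending on the library, for counting error only. This takes counts as independent. Low counts were even in 68.3% to 72.5% of cases per library, so the limit could be higher. Its relatives of cells that are not muscle, MYL12A and MYL12B, were expressed. MYL12A averaged 31.5 CPM with shAhR-1 and 56.9 CPM with shAhR-2 in BE2C, against 40.6 CPM with pLKO-GFP, and MYL12B averaged 57.5 and 49.2 CPM with these hairpins, against 54.7 CPM. In Kelly MYL12B differed by 0.090 ± 0.044 in the libraries labelled shAhR-1 (edgeR adjusted p = 0.0741) and fell by 0.21 ± 0.044 on the log2 scale with shAhR-2 (edgeR adjusted p = 3.76e-05). MYL12A and MYL12B were chosen after their values were seen, so these p-values are descriptions. No fold is given for MYL9.

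**Figure D3:**
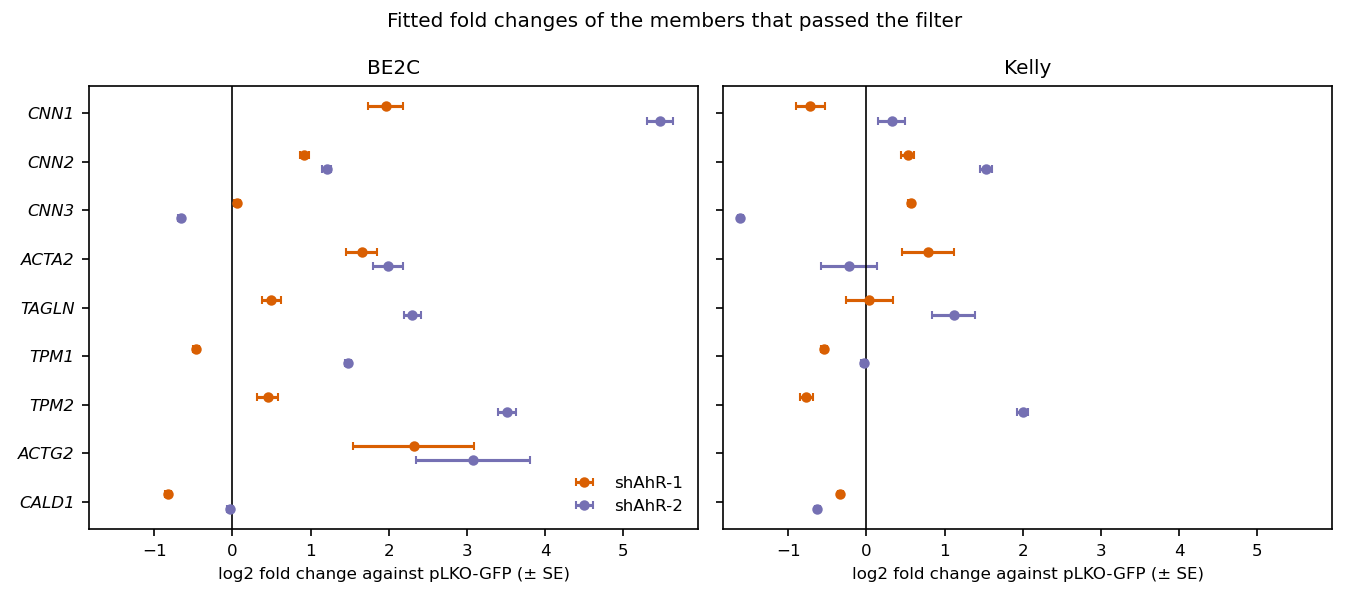
Log2 fold change against pLKO-GFP of the same line (x axis, ± SE) for the members that passed the expression filter, one below the other, in BE2C (left) and Kelly (right), with shAhR-1 and shAhR-2 in 2 colours. In BE2C the shAhR-2 points reach 5.46 for CNN1 and 3.51 for TPM2, and in Kelly they span −1.61 for CNN3 to 2.00 for TPM2.

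With an adjusted p under 0.05 as the call, 9 members passed the expression filter in BE2C and 8 in Kelly, MYL9 being left out in both and ACTG2 in Kelly. In BE2C with shAhR-1, 6 were called higher and 2 lower, in a contrast in which 52.3% of all 15732 genes tested were called. With shAhR-2, 7 were called higher and 1 lower, where 75.1% of all genes were called. Nothing is read from these counts, since the members were chosen on BE2C. The median of the members was 0.50 with shAhR-1 and 1.99 with shAhR-2, beside 0.0082 and 0.035 over all genes. In the Kelly libraries labelled shAhR-1, ACTA2, CNN2 and CNN3 rose and CALD1, CNN1, TPM1 and TPM2 fell, 7 of 8, in a contrast that called 60.5% of 15871 genes (29.6% higher, 31.0% lower). With shAhR-2 in Kelly, CNN2, TAGLN and TPM2 rose and CALD1 and CNN3 fell, 5 of 8, beside 75.4% of all genes (37.2% higher, 38.2% lower). The members' medians in Kelly were −0.15 in the libraries labelled shAhR-1 and 0.15 with shAhR-2, beside 0.0034 and −0.0060 over all genes. The hairpins of a line share their 3 control libraries. Without BE2C shAhR-2 replicate 1 the BE2C shAhR-2 differences were 5.47 for CNN1, 3.37 for TPM2, 2.31 for TAGLN, 2.00 for ACTA2 and 1.42 for TPM1.

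The hairpins were also set directly against each other, without the shared controls. In Kelly all 8 members that passed the filter differed between the libraries labelled shAhR-1 and those with shAhR-2, 3 higher and 5 lower, in a contrast that called 77.4% of all genes (39.3% higher, 38.2% lower). By edgeR's test CNN3 (2.17 ± 0.033, adjusted p = 1.49e-46), ACTA2 (1.01 ± 0.34, adjusted p = 0.00633) and CALD1 (0.29 ± 0.030, adjusted p = 1.9e-12) were higher in the libraries labelled shAhR-1. TPM2 (−2.76 ± 0.076, adjusted p = 2.21e-35), TAGLN (−1.08 ± 0.28, adjusted p = 0.000517), CNN1 (−1.04 ± 0.19, adjusted p = 1.93e-06), CNN2 (−1.01 ± 0.074, adjusted p = 1.49e-17) and TPM1 (−0.51 ± 0.040, adjusted p = 2.18e-16) were lower there. The ACTA2 call was lost without shAhR-1 replicate 2 (0.76, edgeR adjusted p = 0.0735). In BE2C the same contrast gave −3.50 ± 0.13 for CNN1, −3.06 ± 0.11 for TPM2, −1.94 ± 0.039 for TPM1, −1.80 ± 0.11 for TAGLN and 0.72 ± 0.036 for CNN3. There 1 member was called higher and 6 lower, beside 72.4% of all genes called (35.9% higher, 36.5% lower), and nothing is read from this count either.

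The lines differed without a hairpin against AHR. With pLKO-GFP, BE2C had more CNN2 (29.1 ± 2.89 CPM, against 9.09 ± 0.268 CPM in Kelly) and more TAGLN (3.74 ± 0.301 CPM, against 0.780 ± 0.0914 CPM). BE2C had less CALD1 (113 ± 1.48 CPM, against 217 ± 3.53 CPM) and less TPM2 (3.61 ± 0.538 CPM, against 10.9 ± 1.14 CPM). By edgeR's test over all 18 libraries the BE2C minus Kelly difference was 2.26 ± 0.17, adjusted p = 2.81e-16, for TAGLN, 1.68 ± 0.070, adjusted p = 2.37e-26, for CNN2 and 0.26 ± 0.042, adjusted p = 2.34e-07, for TPM1. The edgeR values for genes lower in BE2C were −1.60 ± 0.11, adjusted p = 1.5e-17, for TPM2, −0.94 ± 0.034, adjusted p = 4.78e-29, for CALD1 and −0.32 ± 0.033, adjusted p = 3.22e-12, for CNN3. CNN1 differed by −2.59 ± 0.22 and ACTA2 by 1.54 ± 0.27, both given without a test. ACTG2 differed by 1.89 ± 1.4 (edgeR adjusted p = 0.215). Of the 7 members tested in that contrast, 3 were called higher and 3 lower, beside 76.2% of 17136 genes (37.2% higher, 39.0% lower). The tables of the lines were deposited separately, so line and table cannot be told apart. Per exonic kilobase CNN3 had the highest control level in both lines (51.3 CPM per kb in BE2C, 64.0 in Kelly), followed by CALD1 (11.5 in BE2C, 22.0 in Kelly) and TPM1 (10.4 in BE2C, 8.62 in Kelly). TAGLN (0.956 in BE2C, 0.199 in Kelly), ACTA2 (0.692 in BE2C, 0.238 in Kelly) and CNN1 (0.179 in BE2C, 1.08 in Kelly) were low in both, above ACTG2 and MYL9.

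The difference between the lines in the hairpin effect, BE2C minus Kelly, is given as a description. For shAhR-2 it was 2.19 ± 0.39 for ACTA2, 1.496 ± 0.14 for TPM2, 1.49 ± 0.059 for TPM1, 1.17 ± 0.24 for TAGLN and −0.35 ± 0.092 for CNN2. It was also above 0 for CNN3 (0.93 ± 0.048) and CALD1 (0.58 ± 0.048), which were not higher than their controls with shAhR-2 in either line. For shAhR-1 it was 1.23 ± 0.17 for TPM2, 0.40 ± 0.098 for CNN2, −0.48 ± 0.049 for CALD1, −0.50 ± 0.046 for CNN3 and 0.083 ± 0.061 for TPM1.

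Other smooth muscle genes were examined as a list of 25, of which 20 passed the filter in each line. In BE2C, 3 were called higher and 6 lower with shAhR-1 (25.2% and 27.1% of all genes), and 14 higher and 3 lower with shAhR-2 (38.0% and 37.2%). The medians were −0.14 with shAhR-1 and 1.40 with shAhR-2. PDLIM7, a scaffold of actin filaments, averaged 11.3 CPM with shAhR-1 and 61.9 CPM with shAhR-2 in BE2C, against 8.62 CPM with pLKO-GFP (0.39 ± 0.097 and 2.85 ± 0.086). SMTN, encoding the contractile marker smoothelin, averaged 15.6 and 9.96 CPM with these hairpins, against 20.3 CPM (−0.38 ± 0.079 and −1.02 ± 0.081), and the integrin gene ITGA8 averaged 26.8 and 35.7 CPM, against 39.6 CPM (−0.56 ± 0.062 and −0.14 ± 0.060). In Kelly 4 rose and 10 fell in the libraries labelled shAhR-1 (median −0.21; 29.6% and 31.0% of all genes), and 9 rose and 5 fell with shAhR-2 (median 0.29; 37.2% and 38.2%). MYLK, the kinase that activates smooth muscle myosin, fell in both Kelly contrasts by edgeR's test (−0.91 ± 0.082, adjusted p = 4.84e-14, in the libraries labelled shAhR-1 and −0.37 ± 0.077, adjusted p = 2.57e-05, with shAhR-2). PPP1R14A, an inhibitor of myosin phosphatase, fell as well (−0.66 ± 0.12, adjusted p = 5.4e-06, and −0.80 ± 0.12, adjusted p = 6.76e-08), as did PDLIM5 (−0.25 ± 0.059, adjusted p = 0.000324, and −0.30 ± 0.059, adjusted p = 1.17e-05).

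Several genes of mature smooth muscle were near 0. The smooth muscle myosin heavy chain MYH11 averaged 0.0826 CPM with shAhR-1 in BE2C, 0.0807 CPM with shAhR-2 and 0.0169 CPM with pLKO-GFP, from 10, 11 and 2 summed counts, and at most 0.0464 CPM in a Kelly group. CASQ2 had no count in any library, KCNMB1 averaged at most 0.0303 CPM in any group and PLN at most 0.0353 CPM. Other genes of the same list were detected. Of these, LMOD1 and DES were chosen after their values were seen, so their p-values are descriptions. LMOD1, which encodes the actin filament nucleator leiomodin, averaged 0.102 CPM with shAhR-1 and 0.506 CPM with shAhR-2 in BE2C, against 0.148 CPM with pLKO-GFP. In Kelly LMOD1 fell in the libraries labelled shAhR-1 and rose with shAhR-2 by edgeR's test (−1.04 ± 0.38, adjusted p = 0.0156, and 1.01 ± 0.31, adjusted p = 0.00347). DES, the gene of the filament protein desmin, averaged 0.621 CPM with shAhR-2 in Kelly, against 0.232 CPM with pLKO-GFP (1.40 ± 0.50, edgeR adjusted p = 0.011), and had no count in the libraries labelled shAhR-1. MYLK averaged 11.8 CPM with shAhR-2 in BE2C, against 4.67 CPM with pLKO-GFP. The high CNN1 of BE2C with shAhR-2 was thus measured in libraries with next to no MYH11 or MYL9, and the name smooth muscle contractile refers to the list of genes and not to the cells.

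**Figure D4:**
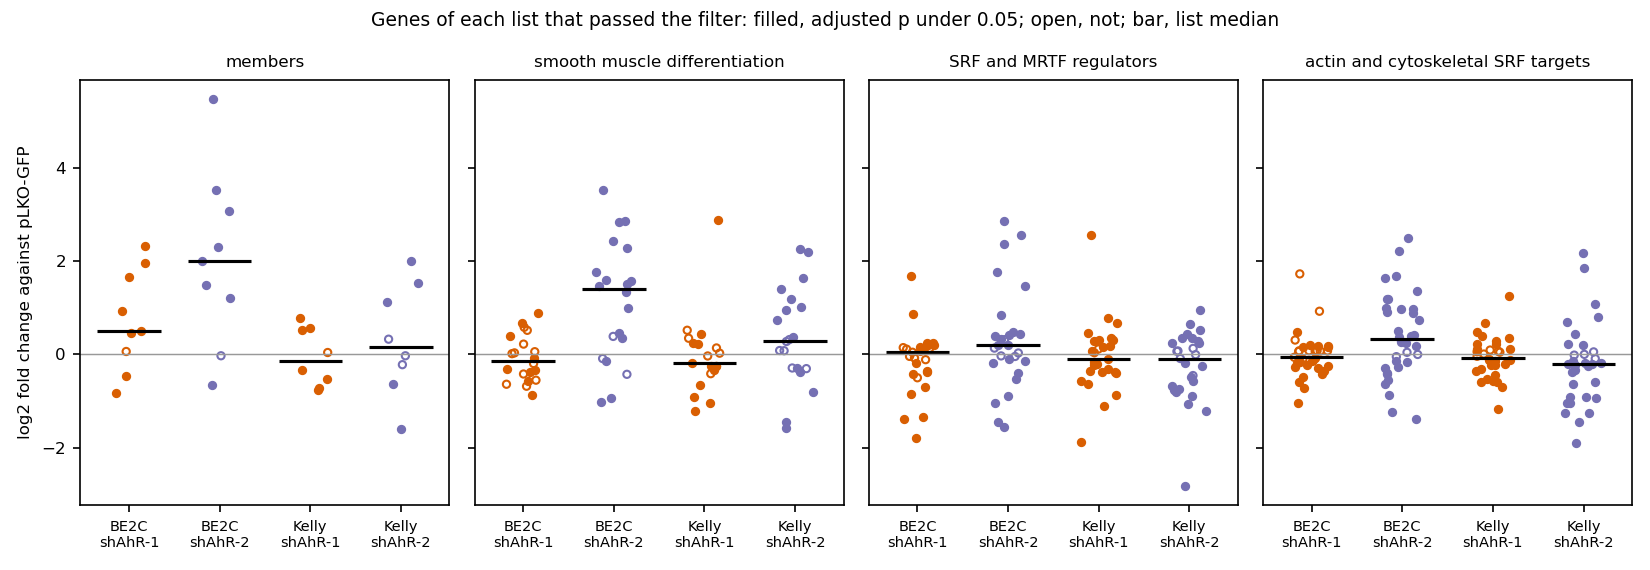
Log2 fold change against pLKO-GFP of the same line for genes of 4 lists that passed the filter; filled points have an adjusted p under 0.05, bars mark list medians, and a gene with no count in all libraries of a compared group is not drawn. The members' medians lie at 0.50 with shAhR-1 and 1.99 with shAhR-2 in BE2C, where the members were chosen, and at −0.15 and 0.15 in Kelly. Over all genes that passed the filter in Kelly, the median of the SRF regulators was −0.10 in the libraries labelled shAhR-1 and −0.091 with shAhR-2. That of the SRF targets was −0.076 and −0.20 in these contrasts.

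Regulators of SRF and MRTF formed a list of 30 genes, 27 of which passed the filter in each line. In BE2C 8 were called higher and 9 lower with shAhR-1 (25.2% and 27.1% of all genes), and 13 higher and 9 lower with shAhR-2 (38.0% and 37.2%). In Kelly 11 rose and 14 fell in the libraries labelled shAhR-1 (29.6% and 31.0%), and 9 rose and 12 fell with shAhR-2 (37.2% and 38.2%). MYOCD, the myocardin gene, was at or near 0 in every group, with at most 0.0156 CPM on average. SRF differed by 0.24 ± 0.050 with shAhR-1 and −0.11 ± 0.051 with shAhR-2 in BE2C. In Kelly SRF rose by 0.15 ± 0.046 in the libraries labelled shAhR-1 (edgeR adjusted p = 0.00464) and differed by −0.0083 ± 0.046 with shAhR-2 (edgeR adjusted p = 0.876). MRTFB, which encodes an SRF coactivator, fell by 0.78 ± 0.048 on the log2 scale in Kelly with shAhR-2 (edgeR adjusted p = 3e-20) and differed by −0.53 ± 0.052 in BE2C with shAhR-2. SRF and MRTFB were chosen after their values were seen, so their p-values are descriptions. The part of these regulators in the member results was not tested.

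Among the named regulators, LIMK1, a kinase that stabilises actin filaments, averaged 55.3 CPM with shAhR-1 and 54.4 CPM with shAhR-2 in BE2C, against 30.5 CPM with pLKO-GFP. In Kelly LIMK1 averaged 79.7 CPM in the libraries labelled shAhR-1 and 59.5 CPM with shAhR-2, against 46.4 CPM, and rose in both by edgeR's test (0.79 ± 0.042, adjusted p = 1.28e-22, and 0.35 ± 0.042, adjusted p = 1.2e-10). The small GTPase gene RHOB rose likewise in Kelly (0.68 ± 0.042, adjusted p = 5.49e-20, and 0.24 ± 0.042, adjusted p = 1.63e-06) and differed by 0.21 ± 0.041 and 0.43 ± 0.040 in BE2C. RHOA differed by 0.15 ± 0.027 with shAhR-1 and 0.20 ± 0.027 with shAhR-2 in BE2C. The formin gene DIAPH1 differed by −0.42 ± 0.033 and −1.05 ± 0.034 in BE2C, and the gene of the filament-severing cofilin, CFL1, by −0.37 ± 0.028 and −0.19 ± 0.028. In Kelly NOTCH3, a receptor of vascular smooth muscle, fell in both contrasts (−1.88 ± 0.080, adjusted p = 1.23e-26, and −1.21 ± 0.074, adjusted p = 1.08e-20). CSRP2, encoding a LIM protein of smooth muscle (−0.88 ± 0.11, adjusted p = 3.24e-10, and −2.82 ± 0.12, adjusted p = 1.57e-26), and ELK3, encoding a partner of SRF (−1.11 ± 0.059, adjusted p = 1.03e-22, and −0.75 ± 0.056, adjusted p = 3.1e-17), fell there too.

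Actin and cytoskeletal targets of SRF formed a list of 34 genes, 34 of which passed the filter in BE2C and 32 in Kelly. In BE2C 6 were called higher and 16 lower with shAhR-1 (25.2% and 27.1% of all genes), and 20 higher and 11 lower with shAhR-2 (38.0% and 37.2%). In Kelly 10 rose and 16 fell in the libraries labelled shAhR-1 (29.6% and 31.0%), and 8 rose and 20 fell with shAhR-2 (37.2% and 38.2%). CAP1, which binds actin monomers, differed by −1.04 ± 0.036 and −1.38 ± 0.036 in BE2C and fell in Kelly by edgeR's test (−1.18 ± 0.034, adjusted p = 1.31e-33, and −1.26 ± 0.034, adjusted p = 9.97e-36). MYH9, the gene of a myosin of cells that are not muscle, differed by −0.29 ± 0.035 and −0.87 ± 0.036 in BE2C and fell in Kelly (−0.45 ± 0.033, adjusted p = 5.73e-17, and −1.89 ± 0.036, adjusted p = 1.88e-42). ZYX, encoding the focal adhesion protein zyxin, rose in Kelly (0.38 ± 0.083, adjusted p = 7.57e-05, and 1.85 ± 0.076, adjusted p = 7.49e-28). The actin binding genes LIMA1 (0.68 ± 0.033, adjusted p = 6.89e-24, and 1.08 ± 0.033, adjusted p = 1.69e-33) and WDR1 (0.47 ± 0.039, adjusted p = 3.36e-15, and 0.79 ± 0.038, adjusted p = 6.24e-25) rose there too.

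In the same list, the actin crosslinker gene FLNC (0.18 ± 0.048 and 0.73 ± 0.047) and the adhesion adaptor gene TGFB1I1 (0.49 ± 0.10 and 1.19 ± 0.097) were higher in BE2C with shAhR-1 and shAhR-2. ACTG1, a cytoplasmic actin, was lower there (−0.59 ± 0.032 and −0.65 ± 0.032). ACTN1, another crosslinker gene, fell in both Kelly contrasts by edgeR's test (−0.36 ± 0.031, adjusted p = 2.04e-14, and −1.27 ± 0.033, adjusted p = 1.08e-36). Genes of the striated sarcomere were sparse. Of 24 listed, 9 passed the filter in BE2C, with 2 called higher with shAhR-1 and 4 with shAhR-2, where 25.2% and 38.0% of all genes were. In Kelly 12 passed, with 1 risen and 5 fallen in the libraries labelled shAhR-1 (29.6% and 31.0% of all genes) and 3 in each direction with shAhR-2 (37.2% and 38.2%).

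Markers of other cells were read beside these values. Bulk libraries cannot tell fewer cells of a type from less RNA per cell. The 12 fibroblast markers summed to 232 to 239.6 CPM in BE2C with shAhR-1 and 505 to 514 CPM with shAhR-2, against 230.5 to 246 CPM with pLKO-GFP, and 7 of the 9 that passed the filter were called higher with shAhR-2 and 1 lower (38.0% and 37.2% of all genes). COL6A3 led there at 133 CPM, against 4.66 CPM with pLKO-GFP, while COL1A2 averaged at most 0.0353 CPM and FAP at most 0.0148 CPM in any group. In Kelly the fibroblast sum was 217 to 229 CPM in the libraries labelled shAhR-1 and 190.2 to 201 CPM with shAhR-2, against 275 to 290.1 CPM with pLKO-GFP. The 9 Schwann cell markers summed to 26.78 to 28.9 CPM in BE2C with shAhR-1 and 84.8 to 89.1 CPM with shAhR-2, against 22.9 to 26.75 CPM with pLKO-GFP. Their Kelly sum was 18.1 to 21.6 CPM in the libraries labelled shAhR-1 and 76.1 to 82.5 CPM with shAhR-2, against 34.1 to 36.8 CPM. With shAhR-2, 6 of the 8 that passed the filter in BE2C were called higher and 0 lower (38.0% and 37.2% of all genes). In Kelly 5 of 7 rose and 1 fell (37.2% and 38.2%). PMP22 led them, and SOX10 averaged at most 0.299 CPM in any group. These sums were thus higher in the group with the most CNN1, TPM1 and TAGLN, and their part in the member results was not tested.

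The 10 pericyte markers, led by RGS5, summed to 3099 to 3208 CPM in BE2C with shAhR-1 and 4437 to 4626 CPM with shAhR-2, against 4081 to 4139.9 CPM with pLKO-GFP. In Kelly they summed to 5074 to 5263 CPM in the libraries labelled shAhR-1 and 8883 to 9067 CPM with shAhR-2, against 10805 to 10849 CPM with pLKO-GFP. RGS5 was abundant in all groups of both lines. It made up most of each sum, averaging 4399 CPM in BE2C with shAhR-2. Of the 10 pericyte markers, 1 was called higher and 4 lower in BE2C with shAhR-1 (25.2% and 27.1% of all genes). With shAhR-2 there, 6 were called higher and 2 lower (38.0% and 37.2%). In Kelly 1 rose and 5 fell in the libraries labelled shAhR-1 (29.6% and 31.0%), and 2 rose and 6 fell with shAhR-2 (37.2% and 38.2%). MYOD1, MYOG and MYF5, which define skeletal muscle, averaged at most 0.0584 CPM in any group. The 5 leukocyte markers together reached at most 0.373 CPM in a library, and the 6 endothelial markers, led by VWF, 7.92 to 9.03 CPM in BE2C with shAhR-2, against 1.71 to 2.26 CPM with pLKO-GFP. The 5 epithelial markers summed to 2.51 to 2.87 CPM in BE2C with shAhR-1 and 13.4 to 14.8 CPM with shAhR-2, against 5.66 to 7.25 CPM with pLKO-GFP. CDH1 was at 0 there with shAhR-2 and with pLKO-GFP. In Kelly the epithelial sum was 1.92 to 2.79 CPM in the libraries labelled shAhR-1 and 7.18 to 8.18 CPM with shAhR-2, against 4.31 to 5.04 CPM with pLKO-GFP. The 11 neuroblastoma markers summed to 6069 to 6150.0 CPM in BE2C with shAhR-1 and 3280.1 to 3342 CPM with shAhR-2, against 6331 to 6509 CPM with pLKO-GFP, and 10 of the 11 were called lower with shAhR-2, as were 37.2% of all genes. In Kelly the sum was 6310 to 6419 CPM in the libraries labelled shAhR-1 and 6913 to 6995 CPM with shAhR-2, against 10563 to 11334 CPM with pLKO-GFP. There 3 rose and 6 fell in the libraries labelled shAhR-1 (29.6% and 31.0% of all genes). With shAhR-2 in Kelly 3 rose and 8 fell (37.2% and 38.2%). The part of these sums in the member results was not tested.

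Over the 18 libraries, each taken as log2(CPM + 0.5) less the mean of its line's controls, the genes most like CNN1 among 11842 were OXR1 (Pearson r = 0.99), PPP1R26-AS1 (0.99), SPHK1 (0.99), CD248 (0.98) and HOTAIR (0.98). These r values are descriptions, since the libraries of a line share their controls. Genes entered with a mean CPM of at least 5 in at least 1 group. PPP1R26-AS1 (6.68 CPM) and SPHK1 (6.01 CPM) did so only through BE2C with shAhR-2, where CNN1 was highest. PPP1R26-AS1 averaged at most 0.121 CPM and HOTAIR at most 0.0144 CPM in a Kelly group, so their r values rest mainly on BE2C. CD248, a surface protein of perivascular cells and fibroblasts, averaged 19.2 CPM with shAhR-1 and 56.5 CPM with shAhR-2 in BE2C, against 13.6 CPM with pLKO-GFP. Those most like ACTA2 were MOB3A (0.97), AAAS (0.96), EMILIN1 (0.95), MFAP4 (0.94) and ZNF629 (0.94). MFAP4, which encodes a protein of elastic microfibrils, averaged 14.8 CPM with shAhR-1 and 12.4 CPM with shAhR-2 in BE2C, against 2.14 CPM with pLKO-GFP. It entered only through these BE2C hairpin groups. Among the members, CNN1 was most like TAGLN (0.93) and least like CNN3 (−0.32).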

How the data were processed

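Total RNA was sequenced after ribosomal depletion (RNA HyperPrep with RiboErase, per the labels' protocols) from BE2C and Kelly, 18 libraries in 6 groups of 3. The values are raw counts per gene that the authors deposited in 2 tables, 1 per line. Per the submitters' processing notes, CASAVA 1.8.2, STAR 2.7.9a and GRCh38.p7 were used. The sources used here do not give the counter, annotation or strand setting. Low counts (1 to 20) were even in 68.3% to 72.5% of cases per library, and halved counts were tried.

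edgeR 4.0.16 (R 4.3.3; filterByExpr, TMM, glmQLFit, glmQLFTest) was fitted over all genes, per line with its 3 groups in 1 model, or over all 18 libraries for contrasts between lines. Calls used a Benjamini-Hochberg adjusted p below 0.05 over all genes tested. SE values come from the fold change and F statistic. CPM uses TMM sizes over all libraries, and totals of 32799682 to 45469353 counts set the precision. Exonic lengths and coordinates are from GENCODE release 29 (GRCh38). A length takes all annotated exons of a gene together, so it can exceed that of any 1 transcript. The procedure was tested on simulated data. Same-numbered replicates did not deviate together (correlations −0.0137 to 0.0244), and no library was a copy of another. Chi-square per gene between replicates, on raw counts with mitochondrial genes included, was 2.91 to 7.35. For the pairs of BE2C shAhR-2 replicate 1 it was 24.8 and 27.2.

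The members and gene lists were chosen with earlier results of these data known. All members are named. From each pathway list, up to 3 genes per direction are named that were called alike with both hairpins, had a mean CPM of at least 5 and lay beyond the controls in all 6 hairpin libraries, those with the largest smaller change first, and the 5 genes most like CNN1 and ACTA2. Of the genes so chosen, 1 is not reported here. Chosen after their values were seen were SRF, MRTFB, MYOCD, MYH11, CASQ2, KCNMB1, PLN, LMOD1, DES, TPM3, TPM4, MYL12A, MYL12B, the overlapping neighbours and the markers. Their p-values are descriptions, since the choice used the same values. Alternatives were RLE size factors, no filter, a mean CPM of at least 1, DESeq2 1.42.0, halved counts, a replicate block, only the compared groups and leaving out each library. Python 3.11.15, numpy 2.4.6, pandas 2.3.3 and matplotlib 3.10.9 were used. Promoter sequences are from RefSeq.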

Additional observations from a re-analysis of the deposited data

Results flagged for a closer look

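CNN1 moved in opposite directions in the lines with shAhR-1. All 3 BE2C libraries lay above their controls and all 3 Kelly libraries so labelled lay below theirs, a BE2C minus Kelly difference of 2.68 on the log2 scale. TPM2 did the same, with a difference of 1.23. These differences are given as a description, with no test, because BE2C values chose the members. The Kelly libraries labelled shAhR-1 had 18, 11 and 22 AHR counts, against 4, 26 and 29 with pLKO-GFP.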

How the results depend on the processing

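The number of members called, which is a description where BE2C values enter, stayed within 1.5 times its reported value in all 9 comparisons under the 25 alternative settings. Of 1479 fold changes of single members refitted under them, 1454 kept their direction and side of the threshold. With the replicate block, 6 members rather than 7 were called in the Kelly libraries labelled shAhR-1, since ACTA2 was lost (0.78, edgeR adjusted p = 0.0537), and the block changed no other count of members. Directions turned for differences near 0 or with few counts. CALD1 in BE2C with shAhR-2 was 0.024 with a mean CPM of at least 1. Leaving out each library in turn gave −0.014 to 0.14 for TAGLN in the Kelly libraries labelled shAhR-1, below 0 without pLKO-GFP replicate 1 or 3. In Kelly with shAhR-2 it gave −0.34 to 0.0079 for ACTA2, above 0 without pLKO-GFP replicate 3, and −0.076 to 0.032 for TPM1, above 0 without pLKO-GFP replicate 2. For the BE2C minus Kelly difference of ACTG2, which had 0 to 4 counts in Kelly, it gave −1.35 to 4.96 for shAhR-1 and −0.43 to 5.70 for shAhR-2, below 0 without Kelly pLKO-GFP replicate 1. The cause was not tested. Depth limits ACTG2, MYL9 and ACTA2 in Kelly.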
